A study of Mus musculus with 4 samples.

Results

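The CCN genes Ccn1 to Ccn5, formerly called Cyr61, Ctgf, Nov, Wisp1 and Wisp2, were followed in 4 RNA-sequencing libraries of cultured mouse articular chondrocytes. They are 5 of the 55450 genes in the deposited count table and were found by symbol. The family was selected with the TPM ratios of these same libraries known (it was chosen by values that include the Ccn3 ratios), so all levels and ratios of its members are given as a description with no test. Ccn6, the remaining gene of the family, was listed at 0 reads in all 4 libraries, where a count of 0 (up to 3 reads) allows 1.99 to 2.24 CPM (reads of a gene scaled to a common total per library).

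Chondrocytes had been released with collagenase from the femoral heads of mice aged 3 weeks and were grown in medium with serum. The WT library (wild type) carried the strain label C57BL/6, as did the 26KO library, of miR-26a -/- chondrocytes (miR-26a KO), and the 23cKO library, of chondrocytes carrying Col2a1-cre and flox/flox alleles of the miR-23a/b clusters (Cart-miR-23clus KO). A further library, here the mimic library, came from miR-26a -/- chondrocytes transfected with a miR-26a mimic (miR-26a KO + mimic) and had the strain label C57BL6/J. Each condition had 1 library, so the differences between conditions lack a replicate check and carry no p-value. The label calls the first library wild type, while the study's account of the sequencing uses both wild type and control for it. The methods define the controls as floxed mice, so it is not certain whether this library carried floxed alleles. In 23cKO the deletion is limited to cells in which the Col2a1 promoter has driven Cre. The labels do not say whether the untransfected 26KO cells received the negative control siRNA. The miRNA loci of the files (Mir23a, Mir27a, Mir23b, Mir26a-1 and Mir26a-2) had 0 reads in every library and gave no check of the genotypes.

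CCN proteins are secreted matricellular proteins: they sit in the extracellular matrix, bind integrins, proteoglycans and growth factors, and alter how cells respond to them. Most are built from an insulin-like growth factor binding domain, a von Willebrand type C domain, a thrombospondin type 1 repeat and a cysteine-rich C-terminal domain, the last of which CCN5 lacks. In cartilage CCN2 is known as a growth and matrix factor of chondrocytes, CCN3 as a protein of resting and articular chondrocytes that often opposes CCN2, and CCN4 as a Wnt-induced protein of osteoblasts and their precursors. Ccn1 and Ccn2 are classical targets of the Hippo pathway effectors YAP and TAZ, of serum response factor and of TGF-β.

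The miRNAs that differ by design between the libraries act by pairing bases 2 to 8, the seed, with sites in 3′ UTRs. Their mature sequences, from RefSeq (GRCm38.p6), are shown with the seed in capitals because the members were searched for matches to it:
miR-23a-3p (chromosome 8, 84208563 to 84208583, plus strand): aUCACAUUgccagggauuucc
miR-27a-3p (chromosome 8, 84208727 to 84208747, plus strand): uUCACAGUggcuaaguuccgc
miR-24-3p (chromosome 8, 84208875 to 84208896, plus strand): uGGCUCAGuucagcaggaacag
miR-26a-5p (chromosome 9, 119031811 to 119031832, plus strand): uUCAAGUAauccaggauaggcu
The first 3 belong to the miR-23a cluster, and miR-27b-3p of the miR-23b cluster shares the seed of miR-27a-3p. The same mature miR-24-3p also comes from chromosome 13 (63301251 to 63301272) and the same miR-26a-5p from chromosome 10 (126995543 to 126995564). The sense strand of the mimic was identical to miR-26a-5p over all 22 bases.

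The mRNA sequences matching these seeds are AATGTGA for miR-23a, ACTGTGA for miR-27a, CTGAGCC for miR-24 and TACTTGA for miR-26a, and they were sought on the sense strand of 1 GENCODE transcript per member. No member transcript held the miR-23a or the miR-26a match at any position. The miR-24 match occurred in the 5′ UTR of Ccn4 only. The miR-27a match occurred in the coding sequence of Ccn1 and of Ccn3, and in a 3′ UTR only in Ccn4, at 2 places. The 2 windows of Ccn4 are shown in GRCm38, as the only matches in a 3′ UTR of the family, with the 7 matching bases in capitals:
Ccn4 3′ UTR base 1434 (chr15:66920878-66920904, plus strand): tgttcttgacACTGTGAaatatcaatt
Ccn4 3′ UTR base 3500 (chr15:66922944-66922970, plus strand): ctattttcaaACTGTGAttgtgtattt
Of 20755 annotated 3′ UTRs, 14.8% held the miR-27a match at least once. The Ccn4 3′ UTR is long, at 3747 bases, and among the 1532 3′ UTRs of similar length 36.8% held the match and 7.25% held it 2 or more times. These are letter matches and not tested sites, and a missing match says only that these letters are not in the annotated transcript.

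The members differ in gene and protein size. Ccn1 lies on chromosome 3 of GRCm38 from 145646976 to 145649981 (minus strand), Ccn2 on chromosome 10 from 24595442 to 24598683, and Ccn5 on chromosome 2 from 163820861 to 163833146. Ccn3 (54745702 to 54754039) and Ccn4 (66891320 to 66923201) both lie on chromosome 15, and these 4 genes are on the plus strand. Each of the 5 transcripts has 5 exons. The coding sequences hold 379 codons in Ccn1, 348 in Ccn2, 354 in Ccn3 and 367 in Ccn4, but 251 in Ccn5, the member without the C-terminal domain. The longest run of bases shared by any pair of members was 28 bases, between Ccn2 and Ccn3, well under the read length of 75 bases, so reads of the members are not easily exchanged. The only annotated gene overlapping a member was Gm15270, antisense to Ccn2, with 6 reads in WT, 1 in each knockout and 0 in the mimic library.

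The deposited tables held 1505805 reads on genes in WT, 1336496 in 23cKO, 1369924 in 26KO and, recovered from its TPM values, 1449246 in the mimic library. These are shallow libraries of mRNA 3′ ends, and a gene with few reads has a wide counting error. All 13 chondrocyte markers were detected in every library, led by Col2a1 with 25154 to 35871 reads, and the endothelial markers were at or near 0. Osteoblast markers were also abundant: their list of 12 held 71203 reads in WT against 60131 for the 13 chondrocyte markers, 18522 against 41066 in 23cKO, 37277 against 40843 in 26KO and 41673 against 43585 in the mimic library. Markers of both cell types were thus present in each library.

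Ccn2 was by far the leading member, and the order of the others depended on the library. Levels are given in TPM, in which the authors divided the reads of a gene by its length and scaled them to a fixed sum per library, with exact 95% intervals from the reads. Ccn2 ranked 101st among all genes of WT by TPM, and between 126th and 177th in the other libraries. In WT the order by TPM was Ccn2 (1456), Ccn1 (169), Ccn5 (60.1), Ccn4 (52.8) and Ccn3 (9.01), with overlapping intervals for Ccn5 and Ccn4. In 23cKO it was Ccn2 (792), Ccn1 (158), Ccn5 (71.1), Ccn3 (56.6) and Ccn4 (14.3), with overlapping intervals for Ccn5 and Ccn3. The lowest member was thus Ccn3 in WT and Ccn4 in 23cKO. In 26KO the order was Ccn2 (1104), Ccn5 (128), Ccn1 (121), Ccn3 (37.7) and Ccn4 (27.8), and in the mimic library it was Ccn2 (870), Ccn5 (135), Ccn1 (126), Ccn4 (34.3) and Ccn3 (31.5). In both of these libraries the intervals of Ccn5 and Ccn1 overlapped, as did those of Ccn3 and Ccn4. Reads of 3′ ends need not scale with gene length, so this order between genes depends on the division. A ratio of the same gene between libraries depends on it only through the fixed sum per library.

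**Figure D1:**
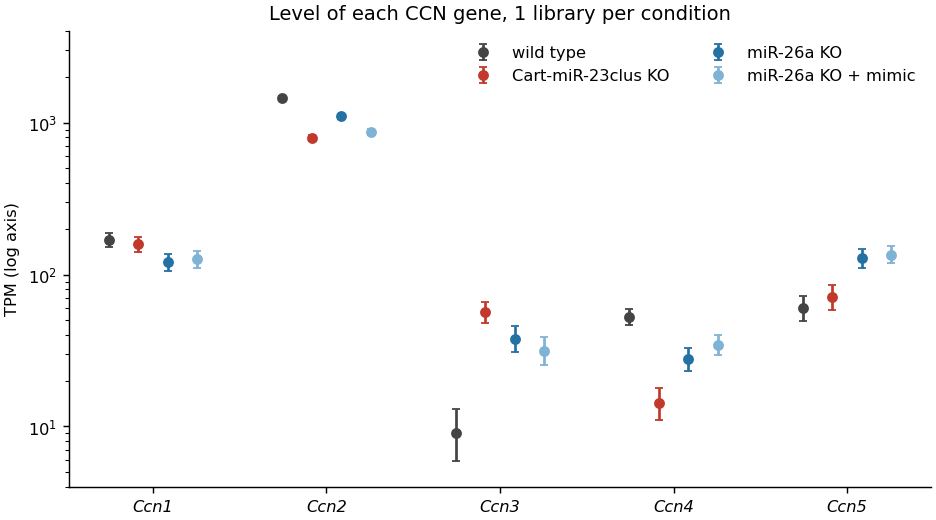
TPM of each member (log axis) in each of the 4 libraries; points are single libraries and bars are exact 95% counting intervals. Ccn3 was lowest in WT (9.01 TPM), Ccn4 was lowest in 23cKO (14.3 TPM), and Ccn2 lay above every other member in all libraries.

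Ratios between libraries are ratios of TPM, and each 95% interval was taken by the exact Clopper-Pearson method from the reads of a gene in both libraries, given the library totals, and covers counting error only. These intervals are on the scale of CPM, which is close to but not the same as that of TPM. Between 23cKO and WT, 1 member had a ratio above 2, against 4.73% of the 9573 genes with at least 20 reads in both libraries together, and 1 was below 0.5, against 4.38%. The interval left out 1 for 3 of the 5 members, against 23.8% of these genes. Between 26KO and WT, 2 members were above 2 (3.88% of 9545 genes) and 0 were below 0.5 (3.5%), and the interval left out 1 for 5 of 5 (19.7%). Since the members were chosen with these ratios known, nothing is read from these counts. Both knockouts were set against the same WT library, so a deviation of that library moves both ratios.

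**Figure D2:**
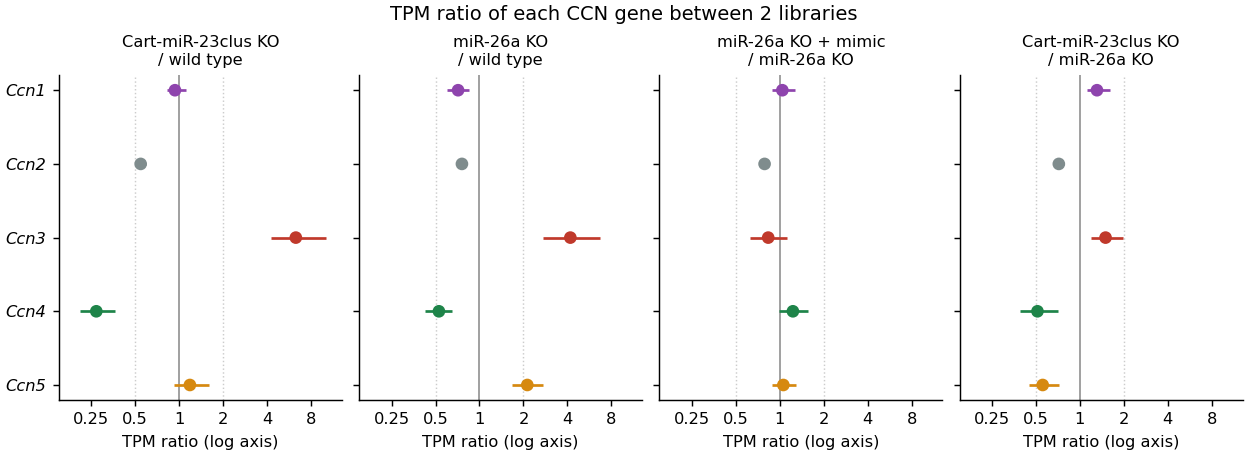
TPM ratio (log axis) of each member in 4 comparisons of single libraries; lines are exact 95% counting intervals, the solid vertical line marks 1 and the dotted lines mark 0.5 and 2. Ccn3 lay at 6.28 and 4.19 in the comparisons with WT and Ccn4 at 0.270 and 0.528, while Ccn2 was the only member whose interval left out 1 between the mimic library and 26KO.

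Ccn3, the member that often opposes CCN2, had the highest ratios to WT. It had 27 reads in WT, 154 in 23cKO, 103 in 26KO and 92 in the mimic library. WT was the low library, and the intervals of the other 3 lay above that of WT. The TPM ratio to WT was 6.28 (95% interval 4.25 to 10.1) in 23cKO and 4.19 (2.72 to 6.67) in 26KO. Of the 9573 genes compared, 26, with Ccn3 itself, had a ratio as large as that of Ccn3 in the former comparison, and 39 of 9545 in the latter. 23cKO also lay above 26KO, by 1.50 (1.19 to 1.99). The whole of the WT level rests on 27 reads.

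Ccn4, the Wnt-induced member, was lower in every other library than in WT. It had 281 reads in WT, 69 in 23cKO, 135 in 26KO and 178 in the mimic library. The libraries were thus ordered WT, mimic, 26KO and 23cKO, and the intervals of the mimic and of 26KO overlapped. The ratio to WT was 0.270 (0.209 to 0.361) in 23cKO, which is 3.70-fold lower, and 0.528 (0.427 to 0.651) in 26KO. In the former comparison 85 of 9573 genes had a ratio as low. Between the knockouts the ratio of 23cKO to 26KO was 0.512 (0.386 to 0.705). Ccn4, with the miR-27a matches printed above, was the only member with such a match in its 3′ UTR, and it had the lowest ratio of the 5 where the miR-23a/b clusters were deleted. A relation between the matches and the level was not tested.

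Ccn2, the main chondrocyte member, had 3648 reads in WT, 1803 in 23cKO, 2519 in 26KO and 2125 in the mimic library. WT was the highest library, and its interval overlapped no other. The intervals of 23cKO and the mimic library did not overlap in TPM (756 to 830 and 834 to 908), but did in CPM (1287 to 1413 and 1405 to 1530). The ratio to WT was 0.544 (0.526 to 0.589) in 23cKO and 0.758 (0.721 to 0.799) in 26KO. A ratio as low as that of Ccn2 was held by 553 of 9573 genes (5.78%) in 23cKO and by 1631 of 9545 (17.1%) in 26KO. Between the knockouts the ratio was 0.718 (0.690 to 0.780).

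Ccn5, the member without a C-terminal domain, separated the miR-26a -/- libraries from the others. It had 108 reads in WT, 116 in 23cKO, 209 in 26KO and 237 in the mimic library. The low pair and the high pair did not overlap, while the intervals overlapped within each pair. The ratio of 26KO to WT was 2.13 (1.68 to 2.71), that of 23cKO to WT was 1.18 (0.923 to 1.59), and that of 23cKO to 26KO was 0.556 (0.449 to 0.717).

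Ccn1, the other YAP target of the family, varied least. It had 357 reads in WT, 303 in 23cKO, 232 in 26KO and 259 in the mimic library. The ratio to WT was 0.934 (0.818 to 1.12) in 23cKO and 0.714 (0.603 to 0.845) in 26KO. Between the knockouts it was 1.31 (1.12 to 1.60), so Ccn1 was lower in 26KO and not detectably different from WT in 23cKO at this depth. Ccn1 and Ccn2, which share upstream regulators, had differing read ratios: there were 0.0979 reads of Ccn1 per read of Ccn2 in WT (0.0875 to 0.109), 0.168 in 23cKO (0.148 to 0.190), 0.0921 in 26KO (0.0802 to 0.105) and 0.122 in the mimic library (0.107 to 0.139). The interval of WT overlapped those of 26KO and the mimic library, and that of 23cKO lay above the others.

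Across 23cKO and 26KO, 0 members had a ratio above 2 or below 0.5, where 3.99% and 3.43% of 9453 genes did, and the interval left out 1 for 5 of 5 members (18.7% of genes).

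The mimic library was set against 26KO to see whether adding back miR-26a moved the members. Here 0 of 5 members had a ratio above 2 or below 0.5, where 1.89% and 1.46% of 9471 genes did, and the interval left out 1 for 1 member (10.2%). That member was Ccn2, with a ratio of 0.788 (0.752 to 0.845), further from WT than in 26KO without the mimic. Ccn4 had a ratio of 1.23 (0.991 to 1.57) and Ccn3 of 0.835 (0.630 to 1.13), both towards the WT level with intervals that included 1. The ratio was 1.04 (0.881 to 1.27) for Ccn1 and 1.06 (0.886 to 1.30) for Ccn5. Relative to WT the mimic library stood at 0.744 for Ccn1, 0.598 for Ccn2, 3.50 for Ccn3, 0.650 for Ccn4 and 2.25 for Ccn5. The intervals bound what these libraries could show, and a Ccn5 ratio of up to 1.30 or down to 0.886 remained within counting error.

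The make-up of the family differed between the libraries as well as its total. The 5 members together held 2936 CPM in WT, 1829 in 23cKO, 2334 in 26KO and 1995 in the mimic library. Relative to WT this was 0.623 (0.593 to 0.655) in 23cKO and 0.795 (0.760 to 0.832) in 26KO, and it mostly follows Ccn2. Ccn2 held 82.5% of the family's reads in WT (exact 95% interval 81.4% to 83.6%), 73.7% in 23cKO (71.9% to 75.5%), 78.8% in 26KO (77.3% to 80.2%) and 73.5% in the mimic library (71.9% to 75.1%). Ccn3 held 0.611% in WT and 6.30% in 23cKO, while Ccn4 held 6.36% and 2.82%. The pair on chromosome 15 thus changed places. Per read of Ccn4 there were 0.0961 reads of Ccn3 in WT (0.0622 to 0.143), 2.23 in 23cKO (1.67 to 3.01), 0.763 in 26KO (0.585 to 0.993) and 0.517 in the mimic library (0.397 to 0.668). A ratio of this kind within a library does not depend on how the libraries are scaled.

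**Figure D3:**
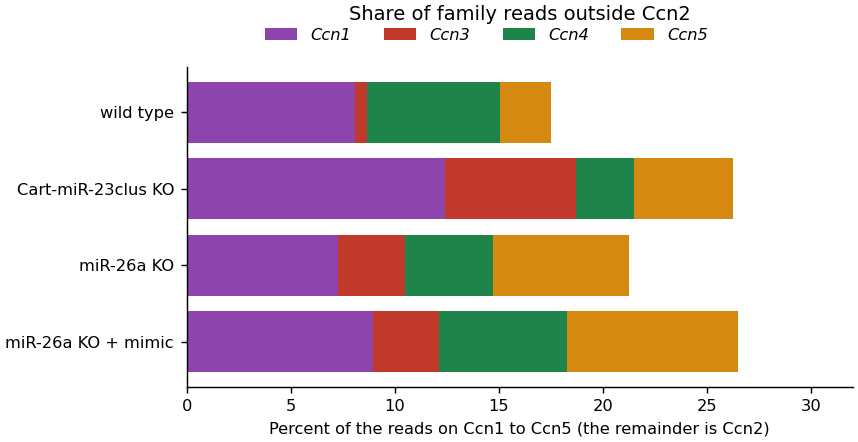
Percent of the reads on Ccn1 to Ccn5 that fell on each member other than Ccn2, in each of the 4 libraries; the bars start at 0 and the remainder of each library is Ccn2. The Ccn3 segment widens from 0.611% in WT to 6.30% in 23cKO, and the Ccn4 segment narrows from 6.36% to 2.82%.

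Ccn4 and Ccn2 were lower in 23cKO than in WT, and so were most osteoblast markers. In bulk RNA, fewer cells of a type and less RNA per cell cannot be told apart. Of the 12 osteoblast markers, 10 had at least 20 reads in 23cKO and WT together, and 8 of these had a TPM ratio below 0.5, beside 4.38% of all genes compared. Col1a1, the chain of bone collagen, had 39203 reads in WT and 7378 in 23cKO, and Ibsp, a bone matrix sialoprotein, had 10938 and 1653. Ifitm5, a defining osteoblast gene, had 34 and 0, and Dmp1, of osteocytes, had 4 and 0. Spp1, which other cells also make, went the other way, with 1140 and 2160 reads. The summed level of the list was 34129 TPM in WT, 12716 in 23cKO, 25018 in 26KO and 23768 in the mimic library. Col1a2 held most of it in each, at 21110, 8798, 18146 and 16021 TPM in the same order. The median log2 ratio of the list was -2.32 in 23cKO and -0.65 in 26KO against WT. It was 0.20 in the mimic library against 26KO. The hypertrophic chondrocyte markers summed to 1025 TPM in WT, 479 in 23cKO, 1170 in 26KO and 1297 in the mimic library. In 23cKO 3 of 5 were below 0.5, with Panx3 at 1079 reads in WT and 193 in 23cKO, while Col10a1, the collagen that defines hypertrophy, had 105 and 148 (ratio 1.55, 1.23 to 2.06). In 26KO 2 of 5 were below 0.5 and the median log2 ratio was -0.79, and Mmp13, a collagenase, alone was higher (1.72, 1.61 to 1.84) and carried the sum. In 26KO 2 of the 10 osteoblast markers were below 0.5 (3.5% of all genes compared): Col1a1, with 15172 reads, and Ifitm5, with 6. The part of these cells in the Ccn4 and Ccn2 ratios was not tested.

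Some other lists differed between the knockouts and some only from WT. Summed macrophage and osteoclast markers were at 1252 TPM in WT, 1610 in 23cKO, 579 in 26KO and 1014 in the mimic library. In 26KO 9 of the 12 genes with enough reads were below 0.5 (3.5% of all genes compared), but Ctsk was at 1.39 (1.14 to 1.69). In 23cKO 1 of 14 was above 2 (4.73%): Acp5, with 4 reads in WT and 26 in 23cKO. Ctsk was there at 1.83 (1.56 to 2.25) and Lyz2 at 0.979 (0.899 to 1.12). Summed adipocyte markers were at 246 TPM in WT and 910 in 23cKO, but at 196 and 212 in the miR-26a -/- libraries. Summed superficial zone markers were at 75.6 TPM in WT, 156 in 23cKO, 370 in 26KO and 346 in the mimic library, and were thus highest in the libraries where Ccn5 was high. Of the 4 genes of that list Prg4, the lubricin of the joint surface, had 101, 198, 309 and 381 reads in these libraries, the matrix protein gene Thbs4 had 24, 38, 435 and 291, and Cilp had 3, 7, 26 and 13. The transcription factor gene Erg went the other way, with 8, 3, 3 and 2. Summed cell cycle genes were at 189 TPM in WT and between 349 and 356 TPM in the other 3 libraries, which is also where Ccn3 was higher. In 23cKO 7 of 12 were above 2 (4.73% of all genes compared) and 0 below 0.5 (4.38%). Ccna2, Pcna and Tyms went the other way there, from 7.42 to 5.69, 42.2 to 35.1 and 6.16 to 4.34 TPM. The chondrocyte markers summed to 15810 TPM in WT and to 11061 to 11298 TPM in the others. The genes of that list did not move together, and its median log2 ratio to WT was -0.16 in 23cKO and -0.48 in 26KO. Matn1 had 2495 reads in WT and 911 in 23cKO. Comp, Col9a2 and Matn3 were higher in 23cKO with intervals that left out 1, from 427, 554 and 115 reads to 658, 663 and 144. In 26KO Comp was at 201 TPM, against 169 in WT, but Col9a2 was at 94.2, against 181. The part of any of these in the members' ratios was not tested.

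**Figure D4:**
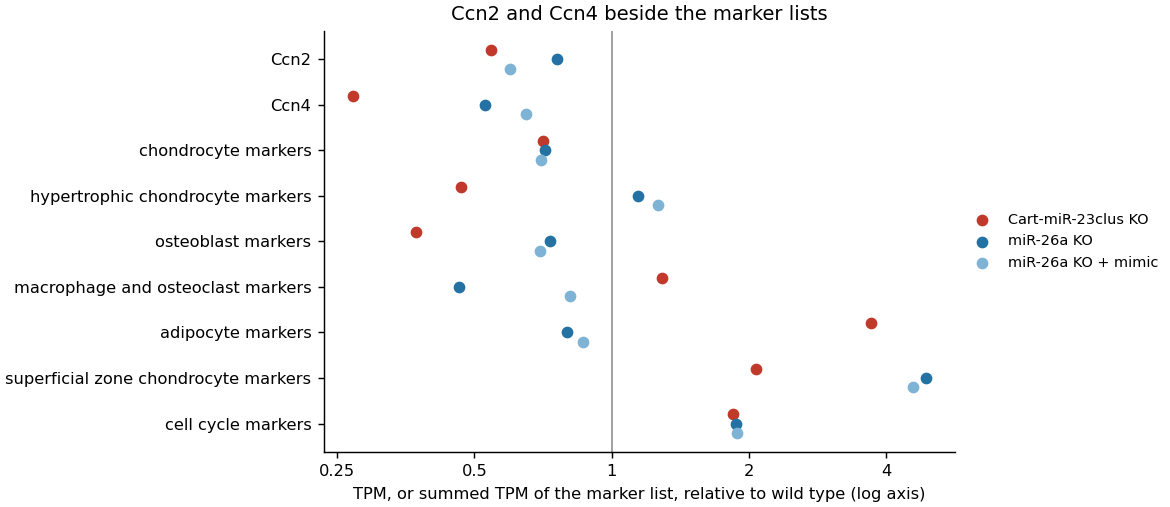
TPM of Ccn2 and Ccn4, and summed TPM of 7 marker lists, in the 3 other libraries relative to WT (log axis; the vertical line marks 1). In 23cKO, Ccn4 stood at 0.270 and the osteoblast list at 0.373, while in 26KO they stood at 0.528 and 0.733. Col1a2 held most of the osteoblast sum in every library.

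The receptors and partners of CCN proteins were described from a list of 21 genes. In 23cKO against WT 15 of them had at least 20 reads and 0 passed 2-fold in either direction, beside 4.73% above 2 and 4.38% below 0.5 of all genes compared; the median log2 ratio over its 17 genes averaging at least 1 TPM was -0.06, beside 0.00 over all 13191 such genes. The leading values were Sdc4, a syndecan that binds CCN proteins, at 1.45 (1.28 to 1.73) and Fgfr2, an FGF receptor bound by CCN2, at 0.710 (0.630 to 0.837). Notch1, a partner of CCN3, had only 8 and 13 reads (ratio 1.79, 0.703 to 5.10). In 26KO against WT 0 of 14 passed 2-fold (3.88% and 3.5% of all genes) and the median was 0.21. The integrin subunits Itgav, at 1.78 (1.21 to 2.65), and Itgb5, at 1.66 (1.42 to 1.94), were higher, as was the Wnt co-receptor Lrp6 at 1.63 (1.25 to 2.13). Between the mimic library and 26KO the median was 0.00 and 0 of 15 passed 2-fold (1.89% and 1.46% of all genes). Itgb1, Fn1 and Acan, the β1 integrin subunit, fibronectin and aggrecan, were abundant in every library, with 828 to 1282, 18401 to 21338 and 3302 to 5077 reads.

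The Hippo pathway and its targets were examined because Ccn1 and Ccn2 are among them. Yap1 had 133 reads in WT, 114 in 23cKO, 126 in 26KO and 165 in the mimic library, and Wwtr1, which encodes TAZ, had 260, 199, 216 and 225. In 23cKO 0 of 12 components passed 2-fold, where 4.73% of all genes compared were above 2 and 4.38% below 0.5. The largest differences were those of Mob1b, a co-activator of the LATS kinases, at 0.525 (0.304 to 0.924) and of the kinase gene Lats1 at 0.562 (0.336 to 0.960). In 26KO Lats1 was at 0.491 (0.279 to 0.838) and was the only one of 12 below 0.5 (3.5% of all genes), and Nf2, an upstream activator of the pathway, was at 0.594 (0.406 to 0.861). The YAP and TEAD target list, which leaves the Ccn genes out, had a median log2 ratio of 0.09 in 23cKO and 0.11 in 26KO. Of its 15 genes with enough reads 1 was above 2 and 0 were below 0.5 in each, beside 4.73% and 4.38% of all genes in 23cKO and 3.88% and 3.5% in 26KO. That gene was Nuak2, a kinase of the AMPK family, with 10 reads in WT, 30 in 23cKO (ratio 3.30, 1.61 to 7.75) and 19 in 26KO (2.09, with an interval of 0.924 to 5.03 that included 1). Crim1, a transmembrane BMP-binding protein, was at 1.89 (1.48 to 2.53) and 1.83 (1.41 to 2.41), and Nt5e, an ectonucleotidase, was at 0.502 (0.336 to 0.771) in 23cKO.

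Genes of serum response factor and its MRTF co-activators, which also drive Ccn1 and Ccn2, had mixed ratios. In 23cKO 3 of 9 were above 2 and 1 was below 0.5, beside 4.73% and 4.38% of all genes compared, with a median log2 ratio of 0.25 beside 0.00 over all genes. The actin-binding Tagln had 3 reads in WT and 37 in 23cKO (13.6, 4.40 to 70.4), the smooth muscle actin Acta2 was at 2.04 (1.82 to 2.40) and the tropomyosin Tpm2 at 2.04 (1.62 to 2.69). Tpm1, another tropomyosin, had 1180 reads in WT, 531 in 23cKO, 693 in 26KO and 812 in the mimic library. In 26KO 0 of 8 passed 2-fold (3.88% and 3.5% of all genes), the median was -0.11, and Tpm1 was at 0.645 (0.587 to 0.710).

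More TGF-β response genes lay above 2 than below 0.5 in both knockouts. In 23cKO 4 of 11 were above 2 and 0 below 0.5, beside 4.73% and 4.38% of all genes compared, with a median log2 ratio of 0.32. In 26KO 5 of 11 were above 2 and 1 was below 0.5, beside 3.88% and 3.5% of all genes, with a median of 0.83 beside 0.03 over all genes. Ltbp2, a latent TGF-β binding protein, had 6 reads in WT, 73 in 23cKO, 75 in 26KO and 72 in the mimic library, and Postn, the matricellular periostin, had 10, 24, 28 and 30. The level of Ltbp2, like that of Ccn3, was low in WT only. Between the mimic library and 26KO 0 of 12 passed 2-fold (1.89% and 1.46% of all genes) and the median was 0.02.

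Of the Wnt response genes that passed 2-fold, all were lower in the knockouts. Only 6 of the 14 had enough reads: 2 of 6 were below 0.5 in 23cKO (4.38% of all genes) and 3 of 6 in 26KO (3.5%). In both, 0 were above 2 (4.73% and 3.88% of all genes), and the medians were -0.50 and -0.77. Bambi, a decoy receptor of TGF-β and BMP, had 100 reads in WT, 16 in 23cKO, 27 in 26KO and 38 in the mimic library. Tcf7, a Wnt transcription factor, had 27, 4, 4 and 14. Lgr5, a receptor of R-spondins, had 66 and 56 reads in WT and 23cKO, but 8 and 13 in the miR-26a -/- libraries. Axin2, a direct Wnt target, had 5 reads or fewer in every library. The Notch list was mostly at or near 0 reads, with 3 of 12 genes carrying enough reads in each of these comparisons. Hes1, a Notch effector, had 16 reads in WT, 20 in 23cKO, 38 in 26KO and 14 in the mimic library, so it was higher in 26KO alone (2.61, 1.42 to 5.01, against WT), and was lower with the mimic (0.344, 0.174 to 0.658).

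**Figure D5:**
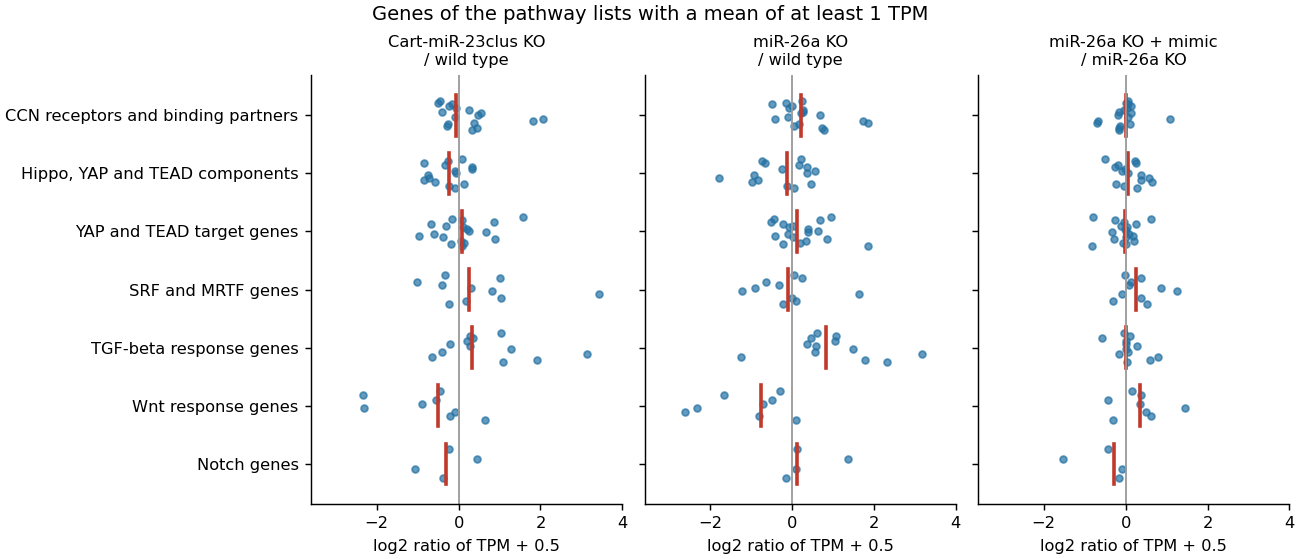
log2 ratio of TPM + 0.5 for each gene averaging at least 1 TPM in 7 pathway lists, in 3 comparisons of single libraries; points are genes, vertical displacement has no meaning, and red bars are list medians. TGF-β response genes have medians of 0.32 and 0.83 in the comparisons with WT, Wnt response genes of -0.50 and -0.77, and CCN receptors and partners of -0.06 and 0.21.

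The genes whose profile over the 4 libraries was most like that of a member were found among 6545 genes with at least 20 reads in every library. Likeness was the largest difference, in any library, between log2 CPM centred on the mean of the libraries. With 4 points many genes share a common shape. The number within 0.2 was 420 genes for Ccn1, 84 for Ccn2, 11 for Ccn5, 4 for Ccn4 and 1 for Ccn3. This number also depends on counting error and on the filter on reads, so it does not measure how particular a shape is. Ccn3 had an interval of 11.8 to 26.1 CPM in WT, and the filter left out Ltbp2, with 6 reads in WT. Ccn4 was followed most closely by Nrp2, a co-receptor of semaphorins and VEGF (0.08; 929, 244, 444 and 580 reads in WT, 23cKO, 26KO and the mimic library), by Pdgfa, a platelet-derived growth factor chain (0.08; 262, 70, 135 and 178 reads), and by the fatty acid desaturase Fads2 (0.14). Pdgfa and Ccn4 had equal read numbers in 26KO and in the mimic library. Ccn3 was followed by the monoamine oxidase Maoa (0.07; 20, 116, 72 and 63 reads) and, less closely, by the metallothioneins Mt2 (0.28) and Mt1 (0.33). Ccn5 was followed by Pmepa1 (0.05; 65, 68, 124 and 134 reads) and Ltbp1 (0.06), both also in the TGF-β response list, and by the secreted Wnt inhibitor Wif1 (0.09). The genes nearest to Ccn2 were Fibin (0.04), the lysophosphatidic acid receptor Lpar4 (0.06) and Gcc2 (0.08), and those nearest to Ccn1 were the lysosomal protease Lgmn (0.01), Fgfrl1 (0.03) and the cartilage collagen Col11a2 (0.03).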

How the data were processed

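QuantSeq 3′ mRNA FWD libraries were read as single-end reads of 75 bases and mapped by the authors to mm10 (GRCm38.p6 in the submitters' processing notes) without quality filtering. The aligner, counter and annotation are not given in the sources used here. Deposited TPM covered 4 libraries and 55141 genes, and deposited estimated counts covered 3 libraries and 55450 genes. The counts are whole numbers, so rounding left them as they were. Reads of the mimic library were recovered from the steps in its TPM: 14429 of 14429 values came out whole within 0.01, and 588 genes could not be recovered.

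Ratios of TPM were counted above 2 and below 0.5 over genes with at least 20 reads summed over both libraries, with exact Clopper-Pearson intervals at 95% that cover counting error only. List medians used log2(TPM + 0.5) over genes averaging at least 1 TPM. Named genes are all members, the 3 genes most like each member, and up to 3 genes per list and comparison with the largest ratio, of which a part is described, plus genes named in the background. Prg4, Thbs4, Cilp, Erg, Col1a1, Ibsp, Panx3, Col10a1, Mmp13, Ifitm5, Dmp1, Spp1, Axin2 and the abundant partners were picked after their values were seen. So were Col1a2, Comp, Col9a2, Matn1, Matn3, Ctsk, Acp5, Lyz2, Ccna2, Pcna and Tyms. The members and lists were chosen with earlier results of these data known.

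Gene models came from GENCODE vM21, with 1 principal transcript per gene. The 3′ UTRs of similar length were those of 0.8 to 1.2 times the member's. Steps were tested on simulated data. Python 3.11.15, scipy 1.17.1, pandas 2.3.3, R 4.3.3, edgeR 4.0.16 and DESeq2 1.42.0 were used, the last 2 for scaling factors only. A result on 1 gene of the lists is not reported here.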

Additional observations from a re-analysis of the deposited data

How the results depend on the processing

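Scaling by CPM, edgeR's TMM or DESeq2's size factors, or adding 0.5 TPM, gave 80 values for the 5 members in the 4 comparisons, and all of them stayed on the same side of 1 as the TPM ratio, within a factor of 1.05. The numbers of members whose interval left out 1 (3, 5, 1 and 5) were the same at 99%. No paired analysis was possible because there is a single library of every condition. The background counts depend on the filter on low reads. A setting without a minimum of reads took only genes detected in both libraries. Then 1397 genes were above 2 and 1092 below 0.5 in 23cKO over WT, and 1185 and 1020 in 26KO over WT. For the mimic library over 26KO they were 707 and 993, and between the knockouts 1369 and 893. With at least 20 reads in each library, these counts were 143 and 102, 112 and 57, 14 and 13, and 83 and 79. The main counts were 453 and 419, 370 and 334, 179 and 138, and 377 and 324. In these a gene undetected in only 1 of the libraries counted as past the fold. List medians stayed within the spread of their genes, but some changed sign when genes had to average 5 TPM, among them the Hippo components in 26KO (-0.13 to 0.19) and the Notch list in 23cKO (-0.31 to 0.03). Depth limits Ccn3 most, with 27 reads in WT. Replicate variation, the control genotype and the untransfected control cannot be judged from 1 library per condition.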
